A study of Mus musculus with 62 samples.

Results

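The plasma proteins of the complement and clotting systems are made largely by the liver, and the levels of the RNAs that encode them were examined in mouse livers after weight-loss surgery and diets of differing protein content. The set held 38 genes chosen by symbol, of 56884 in the deposited table, and all 38 passed the filter on low counts. Of these, 17 encode complement proteins, 20 encode clotting proteins, and Vtn, which encodes vitronectin, a regulator in both systems, was kept apart from them. The mice were C57BL/6J males that ate a Western diet (WD) rich in fat for 12 weeks from 5 weeks of age to make them obese, except that the labels do not say how the chow mice were fed before surgery. The groups were SG and sham mice fed P7, P21, P36 or WD after surgery, with sham mice on chow beside them. SG (sleeve gastrectomy) took out roughly 75% of the stomach, whereas the sham operation opened the abdomen, tied the short vessels and handled the stomach without cutting it. P7, P21 and P36 carried 7%, 21% and 36% of their calories as protein and 20% as fat, with carbohydrate filling the rest. WD carried 15.2% of its calories as protein and 42% as fat, and what chow contained is not stated in the labels. Surgery was at 17 weeks of age, diets were assigned on day 7, and livers were collected in week 14 after surgery from mice that had fasted for 16 h and then eaten for 4 h. The question put by the design is how protein intake after surgery acts on the liver in each surgical group.

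Complement is a cascade of plasma proteases that ends in a membrane pore: recognition proteins such as the mannose-binding lectins start it, convertases built from C3, C4, C2 and factor B amplify it, and C5 to C9 assemble the pore. Clotting is a second protease cascade, in which the contact factors and factor VII feed thrombin, thrombin turns fibrinogen into fibrin, anticoagulants hold it back, and plasmin dissolves the clot. Several members of both cascades, fibrinogen above all, are acute phase proteins, which hepatocytes make in larger amounts during inflammation.

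Promoters are shown for 5 members on which the results below turn: the 3 fibrinogen chains, which lie next to each other in the genome and rose together in single libraries, and C9 and Mbl2, which were lower on P7 in each comparison made. Each stretch runs from 250 bases before to 50 bases after the start of the gene, is written 5′ to 3′ on the strand of the gene, and comes from RefSeq on GRCm38.p6. That build is older than GRCm39, which the submitters' processing notes name. Capitals mark every match, on either strand, to motifs of transcription factors of hepatocytes and of the acute phase, namely GTTAAT (HNF1), TTGCNNAA (C/EBP) and TTCNNNGAA (STAT). A further motif, CAAAGTCC (HNF4), had no match in them.
Fga, chr3:83025903-83026202, plus strand: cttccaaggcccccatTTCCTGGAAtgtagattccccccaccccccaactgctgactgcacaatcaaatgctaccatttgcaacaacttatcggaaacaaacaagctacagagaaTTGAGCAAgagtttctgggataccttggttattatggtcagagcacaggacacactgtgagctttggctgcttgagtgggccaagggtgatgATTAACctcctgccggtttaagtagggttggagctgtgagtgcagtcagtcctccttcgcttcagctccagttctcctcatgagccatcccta
Fgb, chr3:83049814-83050113, minus strand: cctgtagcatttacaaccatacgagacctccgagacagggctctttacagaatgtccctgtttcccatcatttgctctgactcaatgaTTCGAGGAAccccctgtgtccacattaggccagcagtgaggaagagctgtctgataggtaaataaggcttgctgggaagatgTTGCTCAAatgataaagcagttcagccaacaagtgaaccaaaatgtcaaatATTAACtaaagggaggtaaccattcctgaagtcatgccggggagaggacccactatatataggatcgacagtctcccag
Fgg, chr3:83007474-83007773, plus strand: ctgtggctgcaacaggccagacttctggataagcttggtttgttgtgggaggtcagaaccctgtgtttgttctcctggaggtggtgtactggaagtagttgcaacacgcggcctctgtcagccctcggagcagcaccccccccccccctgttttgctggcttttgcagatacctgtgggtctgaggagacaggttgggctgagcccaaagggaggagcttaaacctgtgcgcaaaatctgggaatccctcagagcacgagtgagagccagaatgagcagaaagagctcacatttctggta
C9, chr15:6445096-6445395, plus strand: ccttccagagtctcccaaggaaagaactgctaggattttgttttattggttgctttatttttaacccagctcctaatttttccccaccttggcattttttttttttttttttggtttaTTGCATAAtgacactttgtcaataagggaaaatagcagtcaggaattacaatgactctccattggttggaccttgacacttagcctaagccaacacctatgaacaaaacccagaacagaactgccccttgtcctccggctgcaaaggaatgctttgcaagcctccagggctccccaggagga
Mbl2, chr19:30232678-30232977, plus strand: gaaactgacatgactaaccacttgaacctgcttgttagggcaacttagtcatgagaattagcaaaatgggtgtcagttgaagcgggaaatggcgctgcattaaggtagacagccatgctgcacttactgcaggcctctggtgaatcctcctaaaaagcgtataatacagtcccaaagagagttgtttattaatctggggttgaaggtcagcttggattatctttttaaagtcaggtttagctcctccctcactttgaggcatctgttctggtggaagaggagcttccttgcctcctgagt

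In Fga the matches stood 43 to 38 (HNF1), 135 to 128 (C/EBP) and 234 to 226 (STAT) bases before the start. In Fgb they stood 29 to 24, 80 to 73 and 162 to 154 bases before it, so these neighbours on opposite strands carried the 3 motifs in the same order. C9 had a C/EBP match 132 to 125 bases before the start, and neither Fgg nor Mbl2 had any match in this window. RefSeq promoters were at hand for 30 of the 38 members, and 9 of the 30 held the HNF1 motif, 11 (36.7%) the C/EBP motif, 8 (26.7%) the STAT motif and 0 the HNF4 motif. The same motifs were in 7.1%, 10.8%, 8.3% and 1.42% of all 32851 promoters of this length. A match describes these letters and is not a binding site. Of the 38 members, 13 lay next to another member with 0 protein-coding genes between them: Fgg, Fga and Fgb on chromosome 3, C8b and C8a on chromosome 4, C1ra and C1s1 on chromosome 6, F7 and F10 as well as F11 and Klkb1 on chromosome 8, and Cfb and C2 on chromosome 17.

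Of 62 labelled mice, 57 had a column of counts: 7 SG and 7 sham mice on P7, 6 SG and 7 sham on P21, 4 SG and 5 sham on P36, 8 SG and 8 sham on WD, and 4 sham and 1 SG mouse on chow. The single SG chow library entered no test. Total counts ran from 6990000 to 34010000 per library, and 5.73% to 13.27% of them came from mitochondrial genes. Levels are counts per 1000000 counts of the library (CPM), scaled by TMM, an edgeR method that evens out library composition. Each comparison is a log2 fold change from edgeR's quasi-likelihood test over 16087 genes, with Benjamini-Hochberg adjustment, called at an adjusted p under 0.05. CPM are not corrected for gene length, so single genes are compared between groups and not with each other. The summed levels add CPM over genes of differing length. Some libraries stood apart: Saa1, an acute phase gene, exceeded 2000 CPM in SG WD libraries 5 and 7, sham P21 libraries 1 and 2 and SG P21 library 5, SG P36 library 1 held 34 CPM of the fat-cell gene Adipoq, and SG WD library 4 held 11.3 CPM of the muscle gene Acta1. Hepatocyte markers were abundant in every group, with summed levels between 51143 and 128861 CPM. In bulk liver, fewer cells of a type and less RNA per cell cannot be told apart.

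C9 had the widest range of group means of any member, 3.97-fold between SG mice on P36 and sham mice on P7, and Masp2 the narrowest, 1.26-fold. The highest group mean was that of SG P36 for 22 of 38 members, against 11.6% of all genes tested. The lowest was that of sham P7 for 14 members, against 12.5% of all genes, and that of sham WD for 11 members, against 13.1%.

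**Figure D1:**
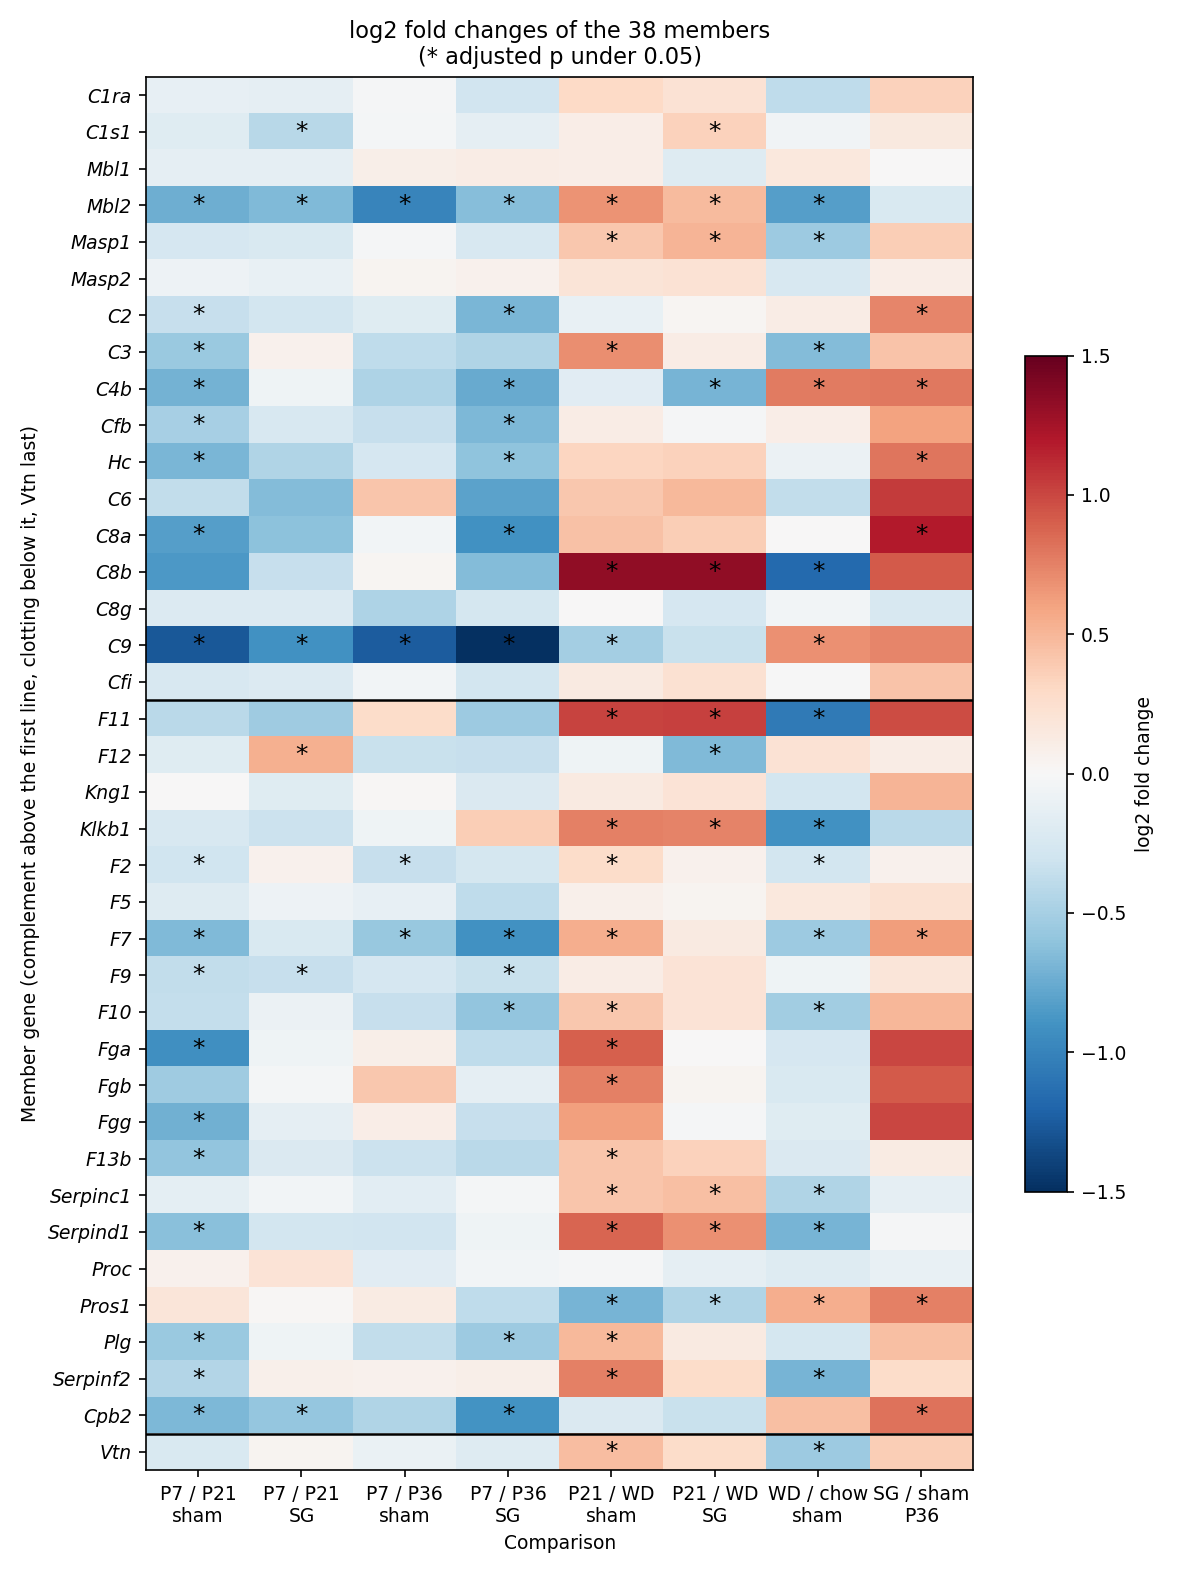
Log2 fold changes of the 38 members (rows) in 8 comparisons (columns), with the group named first set over the group named second; red is higher, blue lower, and an asterisk marks an adjusted p under 0.05. C9 and Mbl2 carry an asterisk in each of the 4 P7 columns, and 18 members do in the first.

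On the low-protein diet, members of both cascades were lower than on P21 in sham mice: 18 of 38 fell and 0 rose, against 26.3% of all genes called, of which about as many rose (13%) as fell (13.4%). The 18 were 8 of 17 complement and 10 of 20 clotting members, with medians over all members of each class of -0.37 and -0.39 against 0.05 for all genes. By role, all 4 convertase components (C2, C3, C4b and Cfb), 3 of 6 terminal components, 1 of 6 initiating proteins, 3 of 5 procoagulant factors, 3 of 4 fibrin proteins, 1 of 4 anticoagulants and all 3 members of fibrinolysis fell. None of the 4 contact factors passed the test. In 8 members, Mbl2, C9, F2, F7, F13b, Serpind1, Plg and Cpb2, every sham P7 library lay below every sham P21 library, against 3.9% of all genes lower without overlap and 3.47% higher, where 0 members stood. Of the 18 calls, 14 held in all 14 fits without 1 library. C3, the protein on which the complement pathways meet, was lost without any of 7 libraries (adjusted p of 0.054 to 0.117) and with no filter on low counts (adjusted p = 0.079), and C8a, Fga and Fgg were each lost without sham P21 library 1 or 2.

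C9, the protein that polymerises into the complement pore, had a lowest, median and highest level of 67.7, 109 and 130 CPM in sham mice on P7, against 164, 240 and 340 CPM in sham mice on P21. On P36 the 5 sham mice had 206, 237, 315, 254 and 198 CPM. In SG mice the C9 values were 87.4, 140 and 221 CPM on P7, against 186, 265 and 365 CPM on P21 and 281, 285, 460 and 584 CPM on P36. Low-protein libraries were thus below the others without overlap in sham mice against both diets and in SG mice against P36, while the SG ranges on P7 and P21 overlapped. The log2 fold changes of P7 in sham mice were -1.27 ± 0.20 (SE, adjusted p = 4.4e-06) against P21 and -1.25 ± 0.21 (adjusted p = 2.63e-05) against P36. In SG mice they were -0.91 ± 0.20 (adjusted p = 0.00273) against P21 and -1.49 ± 0.22 (adjusted p = 3.1e-06) against P36. Comparisons of P7 within one surgical group share the P7 libraries. The P7 to P36 effect on C9 did not pass the test of a difference between SG and sham mice (difference of -0.23 ± 0.32, adjusted p = 0.885).

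Mbl2, a mannose-binding lectin that recognises sugars on microbes, measured 191, 220 and 253 CPM (lowest, median and highest) in sham mice on P7, against 293, 352 and 421 CPM on P21 and 363, 472, 389, 579 and 364 CPM on P36. In SG mice it measured 167, 222 and 331 CPM on P7, against 292, 364 and 466 CPM on P21 and 343, 331, 311 and 496 CPM on P36. In sham mice P7 did not overlap with either other diet, and the highest SG library on P7 reached into both other SG groups. Its changes in sham mice were -0.73 ± 0.16 (adjusted p = 0.000596) against P21 and -0.99 ± 0.17 (adjusted p = 3.69e-05) against P36. In SG mice they were -0.66 ± 0.17 (adjusted p = 0.00693) against P21 and -0.64 ± 0.18 (adjusted p = 0.0103) against P36, the last of which did not pass without SG P36 library 4 (-0.48, adjusted p = 0.0833). The other mannose-binding lectin of the set, Mbl1, passed in none of the 4 comparisons.

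F7, the protease that starts clotting together with tissue factor, fell in 3 of the 4. Its levels were 41.4, 46.7 and 59.7 CPM in sham mice on P7, against 63.8, 76.9 and 86.9 CPM on P21 and 63.9, 67.6, 68.4, 73 and 80.5 CPM on P36. In SG mice they were 49.6, 55.1 and 73.5 CPM on P7, against 56, 68.5 and 83.5 CPM on P21 and 116, 96.9, 110 and 115 CPM on P36. The P7 and P21 ranges overlapped in SG mice alone. Its changes were -0.66 ± 0.15 (adjusted p = 0.000554) and -0.57 ± 0.16 (adjusted p = 0.00905) in sham mice against P21 and P36, and -0.91 ± 0.17 (adjusted p = 7.54e-05) in SG mice against P36, while SG P7 against P21 gave -0.23 (adjusted p = 0.363). F9, a vitamin K-dependent protease missing in haemophilia B, and Cpb2, a carboxypeptidase that slows clot breakdown, also fell in 3 of the 4, but not for sham P7 against P36. For Cpb2 the 3 changes were -0.67 ± 0.17 and -0.58 ± 0.17 against P21 in sham and SG mice and -0.90 ± 0.19 against P36 in SG mice, with adjusted p of 0.00241, 0.024 and 0.000579.

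**Figure D2:**
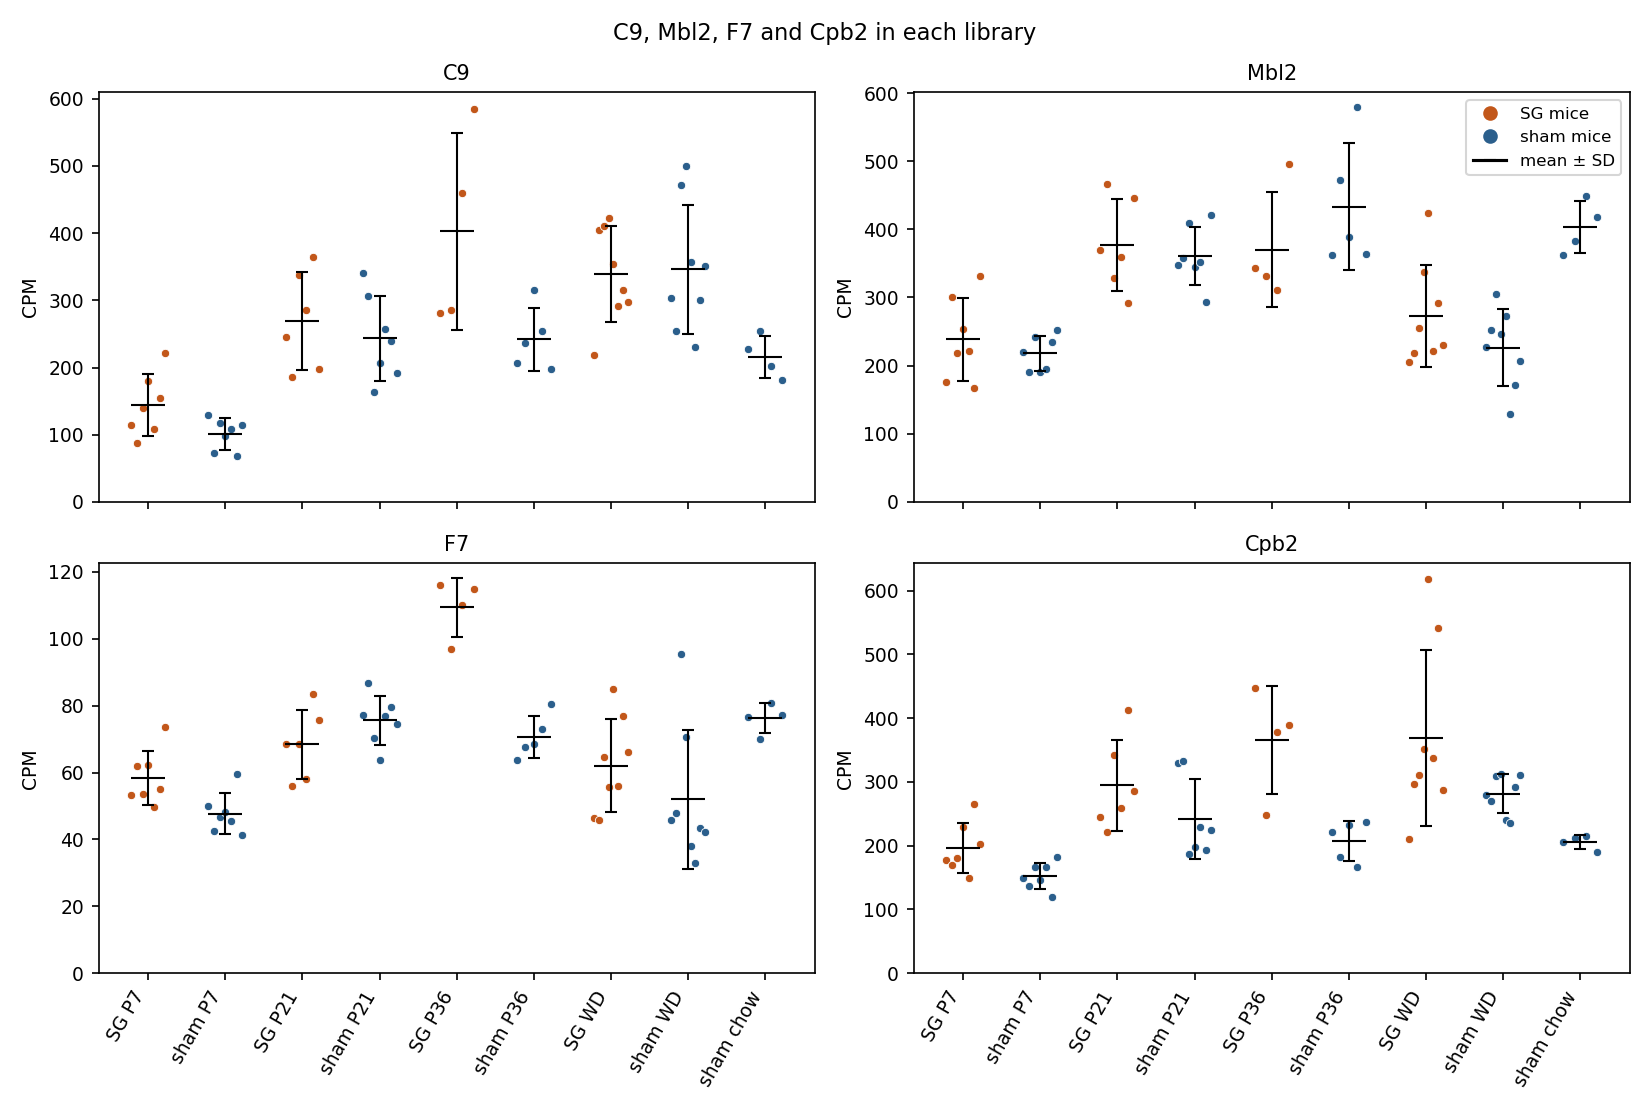
Levels of C9, Mbl2, F7 and Cpb2 in CPM (vertical axes, from 0) in each library, by group, with the mean and SD as lines. The sham P7 libraries of C9 lie between 67.7 and 130 CPM, below every library of sham P21 (164 to 340 CPM).

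In SG mice fewer members passed against P21: 5 fell and 1 rose, against 9.71% of all genes called, 4.2% lower and 5.51% higher. Whether the P7 to P21 effect differed between SG and sham mice was not tested. The falling members were C9, Mbl2, Cpb2, C1s1 (-0.42 ± 0.11, adjusted p = 0.0126), a protease of the C1 complex, and F9 (-0.35 ± 0.10, adjusted p = 0.0242). F12, the contact factor XII, rose by 0.53 ± 0.18 (adjusted p = 0.044). Only the calls of C9 and Mbl2 held in all 13 fits that left out 1 library, and the count fell to 2 without SG P7 library 1. C1s1 was lost without SG P7 library 1 alone (adjusted p = 0.0596), and F12, F9 and Cpb2 were each lost without any of several libraries, with adjusted p of up to 0.122, 0.0829 and 0.112.

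Against the high-protein diet, 4 members fell in sham mice (Mbl2, C9, F7 and F2, against 15.7% of all genes called, 8.2% lower and 7.49% higher) and 12 fell in SG mice (against 18.8%, 8.65% lower and 10.2% higher), and 0 rose in either. F2 encodes prothrombin, and it measured 1160 to 1510 CPM in sham mice on P7, against 1600 to 1730 CPM on P36, which is a change of -0.34 ± 0.10 (adjusted p = 0.0171) with no overlap. The 4 sham calls held in all 12 fits without 1 library. As a share, 4 of 38 is close to that of all genes called lower in sham mice. The 12 SG members were 7 complement (C9, C8a, C4b, C2, Cfb, Mbl2 and Hc) and 5 clotting members (F7, Cpb2, F10, Plg and F9). Among the convertase components the SG changes were -0.76 ± 0.20 for C4b (adjusted p = 0.00477), -0.69 ± 0.13 for C2 (adjusted p = 6.05e-05) and -0.67 ± 0.17 for Cfb (adjusted p = 0.00316). Groups did not overlap for 7 members lower in SG mice (C2, C4b, Cfb, C9, F7, F9 and Plg, against 3.2% of all genes) and for the 4 lower in sham mice (against 3.75%). The SG count ranged from 8 to 12 over 11 fits without 1 library, and 6 calls held in all of them: C2, C4b, Cfb, C9, F7 and Cpb2. In the same SG comparison 3 of 5 adipocyte and 4 of 5 erythroid markers were called lower. Erythroid sums were 237 to 495 CPM on P7, against 446, 524, 551 and 1693 CPM on P36, the last in SG P36 library 1. That library also held 342 CPM of adipocyte markers, against 16.8 to 17.7 CPM in the rest of its group. The part of these markers in the changes of the members was not tested. No member passed the test of whether the P7 to P36 effect differed between SG and sham mice (0 of 38 by edgeR, 3 at an unadjusted p under 0.05, 0 by DESeq2, and 0.149% of all genes called, 0.0684% with a positive and 0.0808% with a negative difference), and the lowest adjusted p was 0.244 for C2.

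Over the 4 comparisons, 2 members were called lower in 4, 3 in 3, 7 in 2, 8 in 1 and 18 in 0, beside 1.29%, 3.07%, 4.68%, 10.7% and 80.3% of all genes in the same order. The comparisons share P7 libraries, so that these counts are no independent repeats. Kng1 (kininogen), Proc (protein C), Pros1 (protein S), Serpinc1 (antithrombin), F5 (the cofactor factor V) and Masp1 and Masp2 (proteases bound to the lectins) were among the 18. For sham P7 against P21, of 9 hepatocyte markers tested, 0 were called lower and 1 was called higher (Rbp4). Their summed levels were 93203 to 120223 CPM in sham mice on P7, against 84264 to 98658 CPM on P21. The part of these markers in the changes of the members was not tested.

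Of the other clotting genes tested, Lman1 and Ggcx were called lower in all 4 comparisons. Lman1, the receptor that takes factors V and VIII from the endoplasmic reticulum towards the Golgi, changed by -1.05 ± 0.14 (adjusted p = 2.88e-07) and -0.97 ± 0.15 (adjusted p = 8.17e-06) in sham mice against P21 and P36. In SG mice it changed by -0.59 ± 0.15 (adjusted p = 0.00717) and -0.85 ± 0.16 (adjusted p = 0.000134). Ggcx, the vitamin K-dependent carboxylase that activates the clotting domains of prothrombin and factors VII, IX and X, changed by -0.75, -0.50, -0.43 and -0.43 in the same order, each with an adjusted p under the threshold. Other genes of the same steps, Mcfd2 (the partner of Lman1), Vkorc1 and Vkorc1l1 (which recycle vitamin K), were called lower in 0 of the 4, and Mcfd2 was called higher for SG P7 against P36 (0.39, adjusted p = 0.0203). Of all 26 other clotting genes tested, 1 rose and 5 fell for sham P7 against P21, where 13.4% of all genes fell, and 2 rose and 7 fell for SG P7 against P36, where 8.65% fell. Of 31 other complement genes, 1 rose and 4 fell for sham P7 against P21, a share close to that of all genes (Cd46 by 0.98 and Clu by -0.48 among them), and 3 fell for SG P7 against P36. Cd46 encodes a membrane cofactor that inhibits the C3 convertase, and Clu encodes clusterin, which binds the forming pore. C4a and C4b are near-identical genes whose reads the counting could share between them, as are C1ra with C1rb, C1s1 with C1s2 and Kng1 with Kng2, so the values of these members are uncertain.

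On the Western diet, 16 members differed from chow in sham mice, 13 lower and 3 higher, against 31.7% of all genes called, 14.5% lower and 17.1% higher. F11 (contact factor XI), Klkb1 (plasma prekallikrein), Mbl2, Serpind1 (heparin cofactor II, an inhibitor of thrombin) and Serpinf2 (the plasmin inhibitor) were lower, and C4b, C9 and Pros1 were higher. Of the clotting members 1 rose and 8 fell (median over the 20 of -0.25), and of the complement members 2 rose and 4 fell (median over the 17 of -0.05), beside -0.01 for all genes. None of the 4 fibrin proteins passed, with changes of -0.25 for Fga, -0.23 for Fgb and -0.18 for Fgg (adjusted p of 0.613, 0.632 and 0.677).

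F11 measured 15, 18.4 and 51.6 CPM (lowest, median and highest) in sham mice on WD, against 44.5, 45.7, 57.5 and 65 CPM on chow. Sham WD libraries 3 and 4 had 51.6 and 49.9 CPM of F11, within the range on chow, and the other 6 had 15 to 18.8 CPM. The change was -1.06 ± 0.29 (adjusted p = 0.00422). C8b, a subunit of the pore, had the same 2 libraries at 434 and 321 CPM, above every chow library, with the other 6 at 22.5 to 65.3 CPM, against 315, 282, 273 and 243 CPM on chow. Its change of -1.17 ± 0.45 (adjusted p = 0.0428) lost its call without any single one of 10 of the 12 libraries, all but sham WD libraries 3 and 4, with adjusted p of 0.0629 to 0.0971, and was lost with no filter (adjusted p = 0.0572) or with the compared groups alone (adjusted p = 0.227). C8a and C6, further pore subunits, were also highest in these libraries, at 1080 and 969 CPM and at 276 and 346 CPM.

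Klkb1 was at 140, 194 and 317 CPM in sham mice on WD, against 359, 312, 420 and 396 CPM on chow, and 1 WD library reached into the chow range (-0.91 ± 0.16, adjusted p = 2.07e-05). Mbl2 was at 129, 237 and 305 CPM on WD, against 362, 383, 449 and 418 CPM on chow, with no overlap (-0.83 ± 0.18, adjusted p = 0.00029). Of the members that rose, C4b was at 993, 1280 and 1930 CPM on WD, against 1040, 867, 682 and 696 CPM on chow, with 1 WD library inside the chow range (0.78 ± 0.21, adjusted p = 0.00275). Across all members, 2 were higher without overlap between the groups (Pros1 and Cpb2, against 7.74% of all genes) and 1 was lower without overlap (Mbl2, against 6.72%). Of the 16 calls, 11 held in all 12 fits without 1 library, and the lost ones besides C8b were C3, C9, F2 and Pros1, each without any of several libraries, among them sham chow library 1 for C3 (adjusted p = 0.16), F2 (adjusted p = 0.104) and Pros1 (adjusted p = 0.0549) and sham chow library 6 for C9 (adjusted p = 0.0803).

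Cell-type markers moved in the same comparison. All 8 macrophage and monocyte markers were called higher on WD, with summed levels of 75.2 to 452 CPM in sham mice on WD, against 39.2 to 66.3 CPM on chow. Of 6 stellate cell markers 5 were called higher (198 to 988 CPM on WD, against 180 to 278 CPM on chow), and of 9 hepatocyte markers 4 were called lower (53788 to 90438 CPM on WD, against 105417 to 115576 CPM on chow), with none of them at 0 in any library. Sham WD libraries 3 and 4 had the highest hepatocyte sums of their group. Library 3 had its lowest macrophage and stellate sums (75.2 and 198 CPM), whereas library 4 had its highest macrophage sum (452 CPM). Library 4 also had the highest sum of Kupffer cell markers, 1259 CPM, against 207 CPM in library 3. The share of mitochondrial counts also differed, at 6.14% to 9.81% in sham mice on WD, against 9.93% to 13.27% on chow, with no overlap. The part of these measures in the changes of the members was not tested. Of the 31 other complement genes 15 rose and 3 fell, led by Colec11 (1.29 ± 0.16, adjusted p = 6.87e-08), a recognition lectin, and Itgax (4.18 ± 0.53, adjusted p = 6.87e-08), a chain of a complement receptor of macrophages and dendritic cells. C1qc, a chain of the recognition protein C1q, which macrophages make, rose by 2.37, and C3ar1, a receptor for a fragment of C3, by 2.22.

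**Figure D3:**
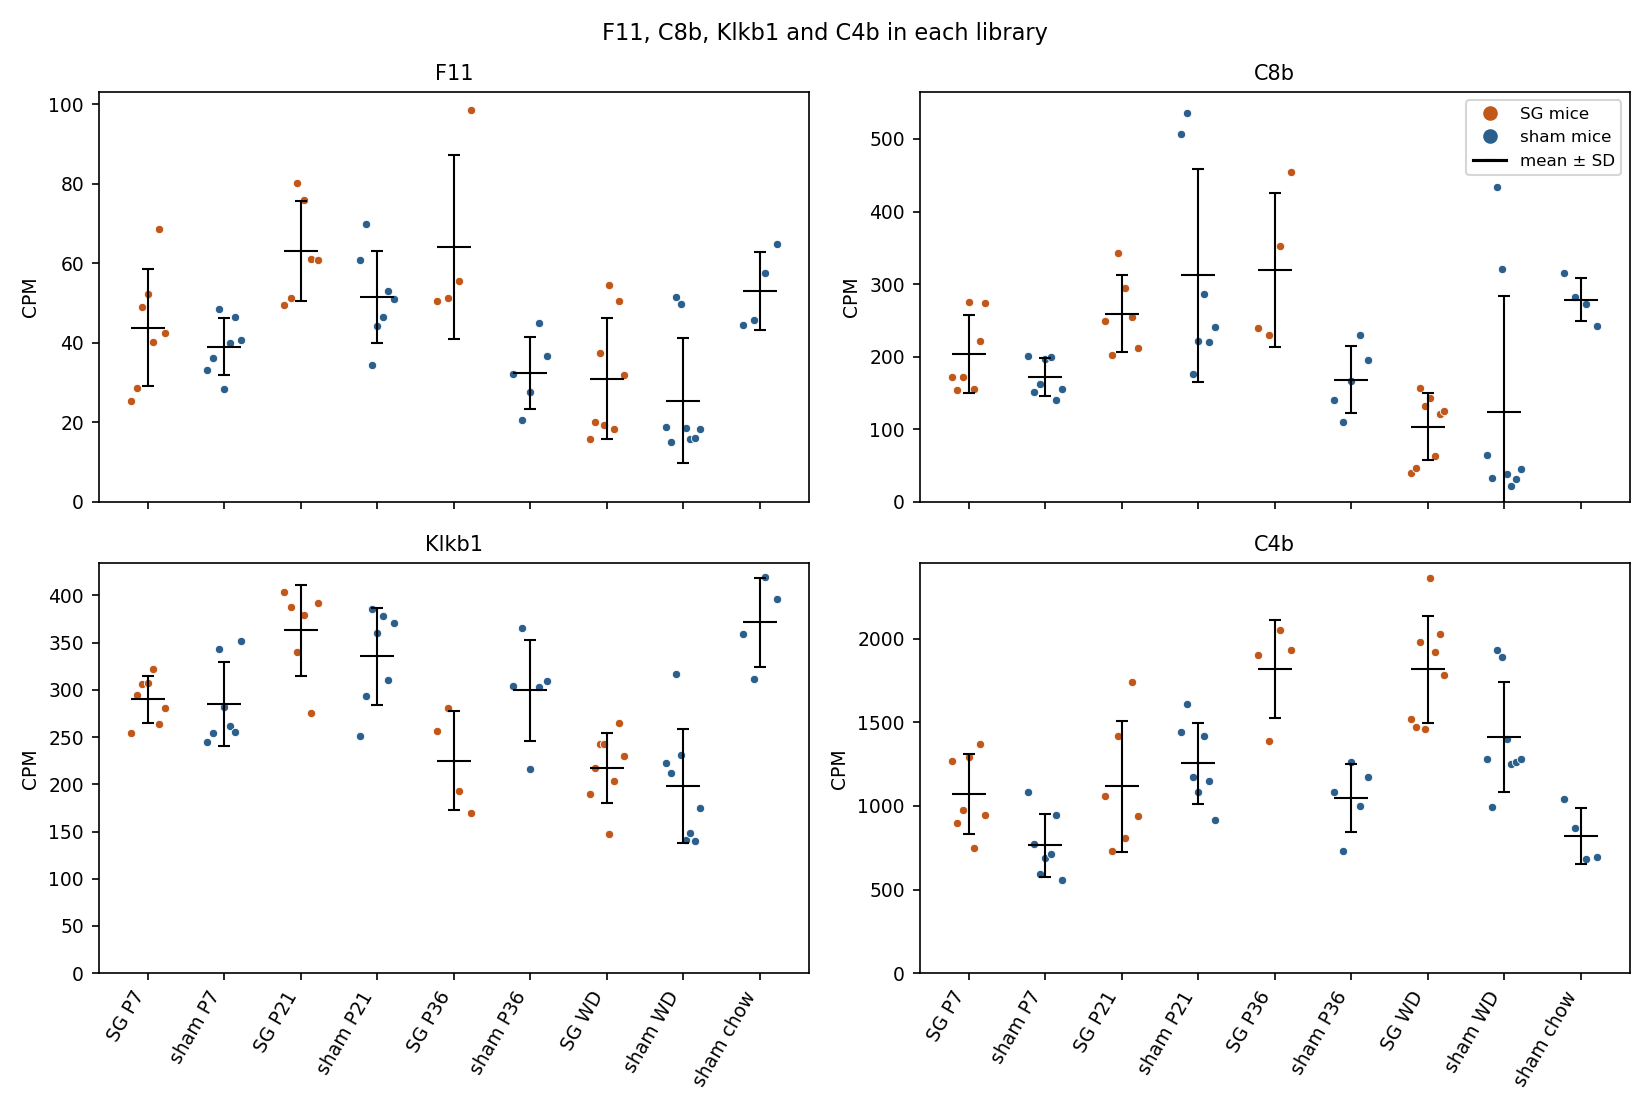
Levels of F11, C8b, Klkb1 and C4b in CPM (vertical axes, from 0) in each library, by group, with the mean and SD as lines; the lower SD line of C8b in sham WD is cut at 0. Sham WD libraries 3 and 4 lie at 434 and 321 CPM of C8b, above the other 6 of their group (22.5 to 65.3 CPM).

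Set against WD, mice moved to P21 had more RNA of many members: 17 were higher and 2 lower in sham mice (against 32.1% of all genes called, 14.4% higher and 17.7% lower), and 8 were higher and 3 lower in SG mice (against 29.5%, 12.4% higher and 17.1% lower). The sham comparison shares its WD libraries with that against chow. In sham mice 4 complement and 12 clotting members rose along with Vtn, with class medians of 0.19 and 0.42 against 0 for all genes. Serpind1 was at 595, 643 and 674 CPM in sham mice on P21, against 265, 311 and 488 CPM on WD, with no overlap (0.87 ± 0.12, adjusted p = 4.2e-07). Pros1, the cofactor of activated protein C, was at 37, 44.4 and 47.2 CPM on P21, against 58, 68.3 and 82.8 CPM on WD, again with no overlap (-0.70 ± 0.15, adjusted p = 0.000358). These 2 were the only members without overlap in sham mice, against 2.31% of all genes higher and 2.28% lower.

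In SG mice, Serpind1 rose by 0.69 ± 0.13 (adjusted p = 6.62e-05), Klkb1 by 0.74 ± 0.14 (adjusted p = 0.000174), F11 by 1.02 ± 0.26 (adjusted p = 0.00308) and C8b by 1.33 ± 0.41 (adjusted p = 0.0127) on P21 against WD. C8b was at 202 to 343 CPM in SG mice on P21, against 39.9 to 157 CPM on WD, and Masp1, Klkb1 and Serpind1 likewise did not overlap between the groups (4 members higher and 0 lower, against 2.78% and 2.47% of all genes). C4b fell by 0.70 (SE 0.18, adjusted p = 0.00279) and F12 by 0.66 (SE 0.17, adjusted p = 0.00364) in SG mice. In sham mice C4b had -0.17 and F12 -0.06 (adjusted p of 0.467 and 0.8), and the difference between SG and sham mice was not tested. Of the calls, 13 of 19 in sham mice and 9 of 11 in SG mice held in every fit without 1 library. Fga and Fgb, called higher in sham mice at 0.90 and 0.75, were among those lost, without sham P21 library 1 (0.66, adjusted p = 0.08, and 0.52, adjusted p = 0.159) or library 2 (0.67, adjusted p = 0.0783, and 0.50, adjusted p = 0.18). C8b, called higher in sham mice on P21 at 1.33 (adjusted p = 0.0081), had 0.90 (adjusted p = 0.112) without the 5 libraries of high Saa1, where 14 members were called, and lost its call with the compared groups alone (adjusted p = 0.0959).

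Markers of cell types moved between P21 and WD too. In sham mice 3 of 9 hepatocyte markers were called higher and 7 of 8 macrophage and monocyte and 4 of 6 stellate cell markers lower. Their summed levels were 84264 to 98658 CPM (hepatocyte), 68.1 to 123 CPM (macrophage) and 211 to 340 CPM (stellate) in sham mice on P21, against 53788 to 90438, 75.2 to 452 and 198 to 988 CPM in sham mice on WD. In SG mice 3 hepatocyte markers were called higher and 6 macrophage and monocyte, 3 stellate cell and 4 of 5 erythroid markers lower, with macrophage sums of 81.3 to 301 CPM on P21, against 143 to 669 CPM on WD. Their part in the changes of the members was not tested.

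On P36, 7 members were higher in SG than in sham mice and 0 lower, against 2.22% of all genes called and 1.22% higher. They were C2, C4b, Hc (complement C5) and C8a of complement and F7, Pros1 and Cpb2 of clotting. C2, the protease of the classical and lectin C3 convertase, was at 107, 114, 131 and 124 CPM in the 4 SG mice, against 71.2, 62, 65.4, 60.9 and 100 CPM in the 5 sham mice. The groups did not overlap, and the change was 0.73 ± 0.14 (adjusted p = 0.00156).

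Hc was at 767, 657, 951 and 779 CPM in SG mice on P36, against 467, 407, 437, 514 and 435 CPM in sham mice (0.80 ± 0.20, adjusted p = 0.0168). C8a was at 660, 638, 914 and 1150 CPM, against 266, 300, 485, 467 and 318 CPM (1.19 ± 0.34, adjusted p = 0.0498). Cpb2 was at 448, 248, 379 and 389 CPM, against 221, 182, 232, 166 and 237 CPM (0.82 ± 0.21, adjusted p = 0.0209). None of these ranges overlapped, and 12 members were higher without overlap, against 2.28% of all genes. The others were C4b, C8b, F11, Kng1, F7, Fga, Fgg and Plg (plasminogen), of which C4b and F7 were called. Over all members the class medians were 0.43 for complement and 0.36 for clotting, against 0.01 for all genes, and 22 of 38 had an unadjusted p under 0.05. The share of all genes at that unadjusted level was not counted, here or in any other comparison, so such counts of members cannot be weighed against it.

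Only C2 held its call in all 9 fits without 1 library, and the count of calls ranged from 1 to 10. The count was 2 without SG P36 library 1, the library with Adipoq, and SG WD library 4. Hc was lost without sham P36 library 2 (adjusted p = 0.0649) or SG P36 library 3 (adjusted p = 0.0928), and C4b, C8a, F7, Pros1 and Cpb2 were each lost without any of at least 5 of the 9 libraries. Of 5 adipocyte markers 1 was called higher in SG mice (summed levels 16.8 to 342 CPM in SG mice, against 6.58 to 46.8 CPM in sham mice), and Adipoq, Plin1 and Lep were at 0 in 18, 29 and 32 of the 57 libraries. All 16 acute phase genes had positive changes, with a median of 1.47, and 3 were called (Hpx 1.33, Itih3 1.31 and Fgl1 2.05), and their summed level was 11836 to 46797 CPM in SG mice, against 10080 to 16436 CPM in sham mice. Their part in the changes of the members was not tested.

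On the other diets, SG mice differed from sham mice in 1 member on P21 (against 8.52% of all genes, 4.65% lower and 3.87% higher) and in 0 on WD (against 2.34%, 1.88% higher and 0.46% lower) and P7 (against 0.0%). By edgeR, 6 members on WD and 8 on P7 had an unadjusted p under 0.05, and DESeq2 called 0 on both. The member on P21 was F12, at 160, 178 and 232 CPM in SG mice, against 245, 288 and 371 CPM in sham mice, with no overlap (-0.63 ± 0.18, adjusted p = 0.021). It was lost without sham P21 library 1 (-0.55, adjusted p = 0.0506). F12 was also higher for P36 than P21 in SG mice (315, 308, 359 and 394 CPM on P36, against 160 to 232 CPM on P21), by 0.89 ± 0.20 (adjusted p = 0.00331). F2 and F13b (a subunit of factor XIII, which crosslinks fibrin) were lower in SG mice on P21 without overlap too, against 2.85% of all genes, and neither passed the test.

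On P7, 35 of 38 members had a positive change in SG against sham mice, with class medians of 0.19 and 0.22 against 0 for all genes, and the lowest adjusted p was 0.908, for Hc. No member passed the test of whether the effect of SG differed among WD, P36, P21 and P7 (0 of 38, against 0.901% of all genes, with 6 at an unadjusted p under 0.05). The lowest adjusted p was 0.0654, for C2, which DESeq2 called (adjusted p = 0.0158). The effects on P36 are thus not shown to differ from those on the other diets. In the authors' deposited table of SG against sham, 4 members had an adjusted p under 0.05 on P36 (C2, Hc, Pros1 and Cpb2), F12 alone had one on P21, and 0 had one on P7. Signs in the authors' deposited table were the same as here for 37, 34 and 37 of 38 members on P36, P21 and P7. Both come from the same series of livers, so this match is no independent repeat.

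Between the higher-protein diets, 5 members differed for P36 against P21 in SG mice, 4 higher and 1 lower, against 7.69% of all genes called, 3.68% higher and 4.01% lower. F12, F7 (0.68 ± 0.17, adjusted p = 0.00931), C4b (0.70 ± 0.21, adjusted p = 0.0266) and C2 (0.42 ± 0.13, adjusted p = 0.0358) were higher, and Klkb1 was lower (-0.69 ± 0.18, adjusted p = 0.00958). Only F12 and F7 held in all 10 fits without 1 library, and 11 members were called without the libraries of high Saa1, SG P21 library 5 among them. In SG mice 6 members were higher without overlap (C2, F12, F2, F7, F10 and Plg, against 3.55% of all genes) and C1s1 was lower (against 4.67%). Of 5 erythroid markers 4 were called higher in the same comparison, and their part in the changes of the members was not tested. Their sums were 446, 524, 551 and 1693 CPM on P36, the last in SG P36 library 1, against 215 to 465 CPM on P21. In sham mice 0 passed by edgeR and by DESeq2, against 0.087% of all genes (0.0684% higher and 0.0186% lower), with 9 at an unadjusted p under 0.05, the lowest adjusted p being 0.27 for Serpinf2.

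The sums below add TMM-scaled CPM over members and are written as a percent, so they are not exact shares of all counts. Complement RNAs came to 1.12% ± 0.213 in sham mice on P7 (SD, n = 7), against 1.61% ± 0.346 on P21 (n = 7) and 1.40% ± 0.209 on P36 (n = 5). Clotting RNAs came to 1.70% ± 0.199 on P7, against 2.38% ± 0.824 on P21 and 1.72% ± 0.152 on P36. Without the 3 fibrinogen chains, which made up the larger part of the spread, the clotting sum was 0.934% ± 0.0394 on P7, against 1.13% ± 0.0966 and 1.07% ± 0.0448. Each of the 7 sham P7 libraries (0.874% to 0.991%) then lay below each library of sham P21 (1.04% to 1.29%) and sham P36 (1.01% to 1.13%). The complement sum without C3, the member with the most counts in it, was 0.527% ± 0.0397 in sham mice on P7, against 0.744% ± 0.124 on P21 and 0.631% ± 0.0718 on P36.

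SG mice on P36 had the highest group mean of both sums, 1.96% ± 0.288 for complement and 2.53% ± 0.463 for clotting (n = 4), against 1.40% ± 0.209 and 1.72% ± 0.152 in sham mice on P36. The ratio of complement to clotting counts in a library had group means between 0.654 ± 0.0475 (sham P7) and 0.807 ± 0.0514 (sham P36), and single libraries ran from 0.471 to 0.880. The class medians of complement and clotting were furthest apart for P7 against P36 in SG mice (-0.60 and -0.35), for P21 against WD in sham mice (0.19 and 0.42) and for SG against sham on P21 (0.11 and -0.12). Sums are descriptions, and no test was made on them.

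**Figure D4:**
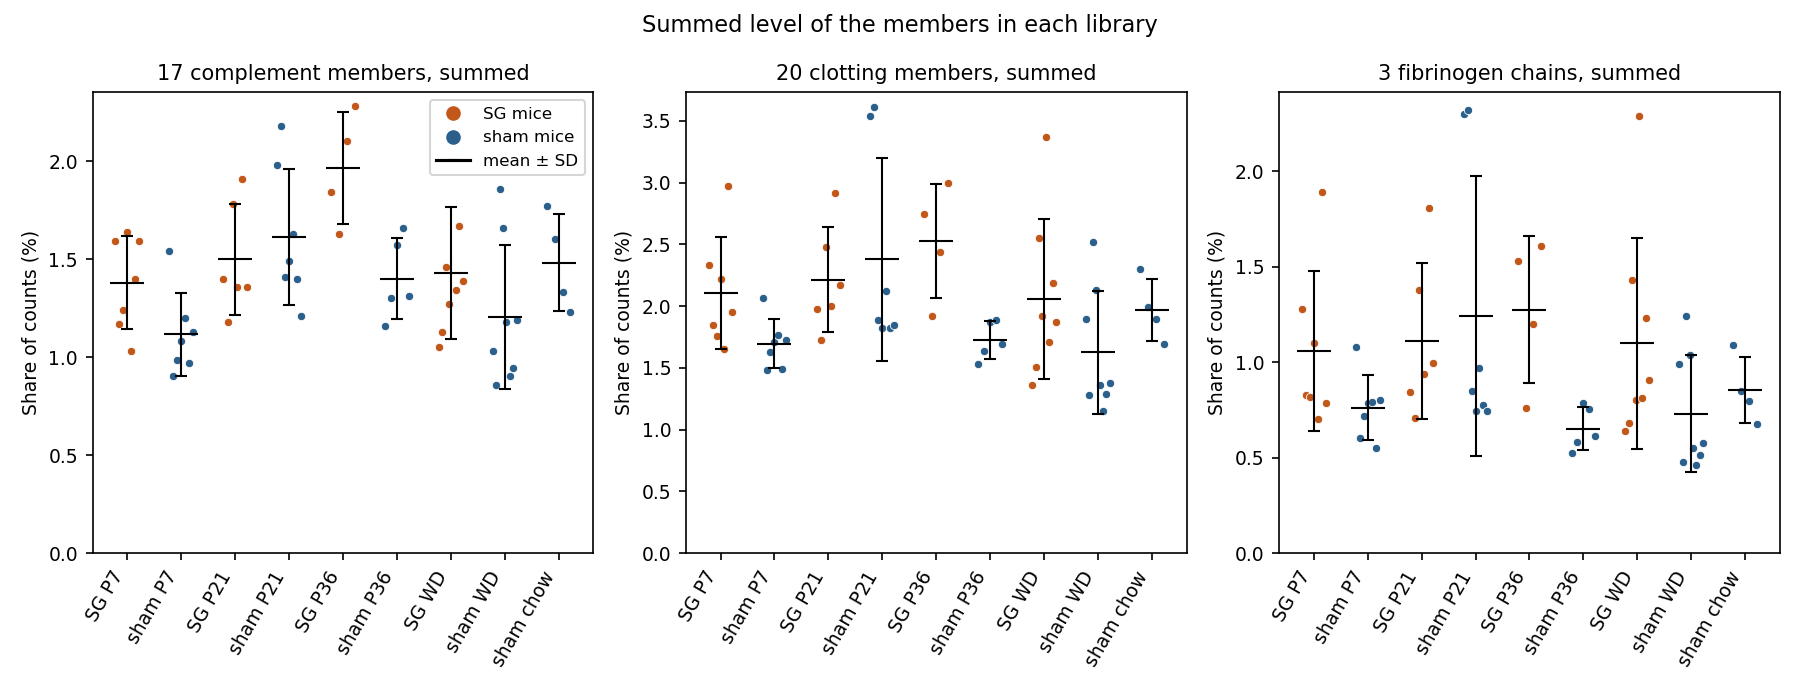
Summed TMM-scaled CPM, written as a percent (from 0), of the 17 complement members, the 20 clotting members and the 3 fibrinogen chains in each library, by group, with the mean and SD as lines. Sham P21 libraries 1 and 2 stand at 2.3% and 2.32% for fibrinogen, above the other 5 of their group.

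The 3 fibrinogen chains stood high in single libraries of several groups. Fga was at 1400, 2470 and 3880 CPM (lowest, median and highest) in sham mice on P7, against 2540, 2910 and 8700 CPM on P21, where libraries 1 and 2 had 8700 and 8560 CPM and the other 5 had 2540 to 3740 CPM. These ranges overlapped. Fga fell by 0.92 (SE 0.30, adjusted p = 0.0191) and Fgg by 0.72 (SE 0.26, adjusted p = 0.0345) for sham P7 against P21, while Fgb had -0.53 (adjusted p = 0.178). Both calls were lost without either of those libraries (adjusted p of 0.0868 and 0.0849 for Fga, 0.135 and 0.131 for Fgg).

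The 2 libraries were also those of high Saa1 in their group. Without the 5 libraries above 2000 CPM of Saa1, the changes were -0.33 (adjusted p = 0.387) for Fga and -0.26 (adjusted p = 0.421) for Fgg, the calls of C3 and C8a were lost as well, and 15 members were called, of which 14 were among the 18. C9 and Mbl2 kept their calls there, at -1.11 (adjusted p = 0.00011) and -0.79 (adjusted p = 0.000476). Across the 9 groups, the same library was highest for all 3 chains in 7, and that library was also highest for Saa1 in 4 (SG WD library 5, sham P36 library 3, SG P21 library 5 and SG P7 library 6). In SG P7 library 6 Fgb was at 8200 CPM and Saa1 at 951 CPM, and in SG WD library 5 Fgb was at 10100 CPM and Saa1 at 16700 CPM. For sham P7 against P21, 7 of 16 acute phase genes were called lower and 1 higher, among them Saa1 (-4.99 ± 1.29, adjusted p = 0.00299). Saa1 was at 2164 and 2801 CPM in sham P21 libraries 1 and 2 and at 17.2 to 71.2 CPM in the others of that group. Its median was 22.5 CPM in sham mice on P21, against 28 CPM on P7, so the Saa1 change is not one of the whole group.

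**Figure D5:**
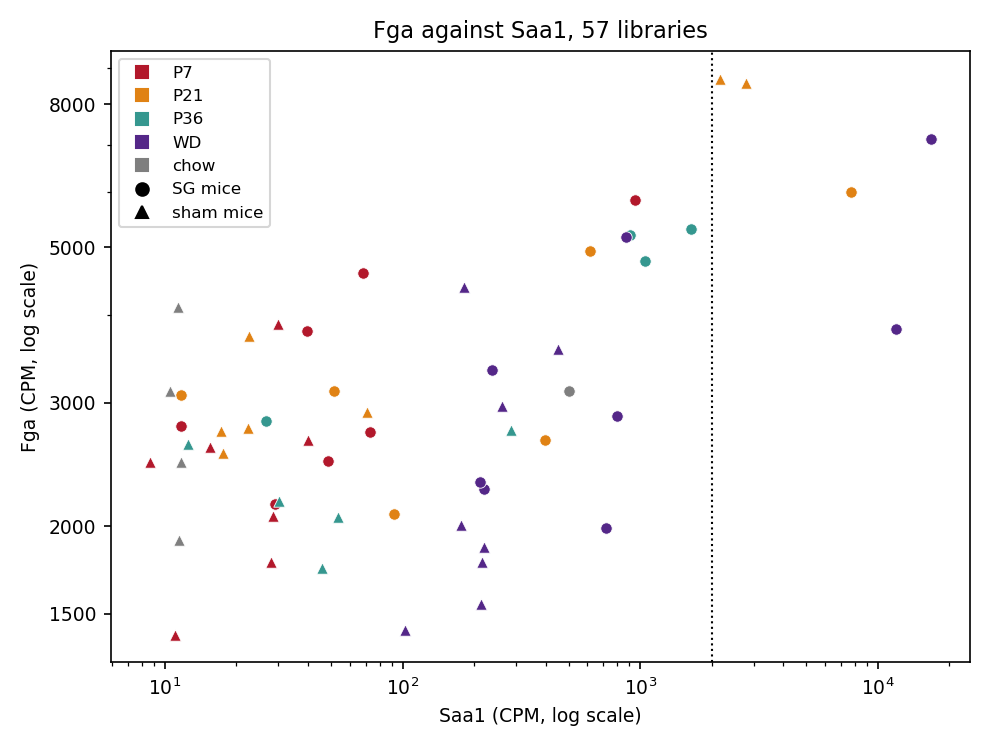
Fga against Saa1, both in CPM on log scales, in the 57 libraries, coloured by diet and shaped by surgery; the dotted line marks 2000 CPM of Saa1. The 5 libraries to its right include sham P21 libraries 1 and 2, at 8700 and 8560 CPM of Fga.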

How the data were processed

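Poly(A) RNA from each liver was sequenced as stranded paired reads, per the labels' protocols. The authors deposited gene-level expected counts, named RSEM in the sheet, which shares reads among near-identical genes; aligner and annotation are not given in the sources used here. R 4.4.1, edgeR, limma and GRCm39 are named, without roles, in the submitters' processing notes. The authors also deposited log2 fold changes, p-values and moderated test statistics, a kind of score, for SG against sham, from which fold changes and adjusted p-values were compared in sign and call. Expected counts, of which 96.7% were whole, were rounded. Symbols came from the authors' table for 15523 of 56884 gene IDs and from GENCODE M21 for 36760 others. 0 columns lacked a labelled sample, and 5 labelled mice were not analysed here. One labelled marker (Tf) was not matched.

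The 56 libraries of 9 groups were fitted together in edgeR 4.0.16 (R 4.3.3, limma 3.58.1) after filterByExpr and TMM scaling (factors 0.811 to 1.283), with 47 residual degrees of freedom and a biological coefficient of variation of 28.2%. Quasi-likelihood tests gave log2 fold changes and Benjamini-Hochberg adjusted p-values over 16087 genes, for 13 comparisons and 2 tests of a difference between effects. Standard errors were derived as the absolute log2 fold change divided by the square root of the F statistic. The filter, scaling, fit and test were run on simulated counts for sham P7 against P21, and the other steps were not. Alternatives were DESeq2 1.42.0, RLE scaling, no filter (30187 genes), the compared groups alone, and leaving out libraries. Depth (6990000 to 34010000 counts) left every member well above the filter.

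The members, the lists and the tests were chosen with earlier results of these data known. Statistics were drawn from up to 4 called members in each direction with the largest changes and from C3, Hc, C9, F2, F11, Serpinc1 and the fibrinogen chains. Not all of these were printed, and none were for Serpinc1. Others were given for members where a role was described, and for up to 4 called genes per other list. Mice were housed in pairs, per the labels, and the cage of each was not given, so p-values treat cage mates as independent.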

Additional observations from a re-analysis of the deposited data

Results flagged for a closer look

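In 19 of 369 sets of values (a member, a summed class level or the ratio of the sums, each in 1 of 9 groups), 1 library stood far from the rest of its group, and chance alone would flag about 18, 1 in 20. In SG P7 library 6, 5 members were far above the next library: Fgb at 8203 CPM (next 5225), Fgg at 4820 CPM (next 2937), Kng1 at 2909 CPM (next 2096), Vtn at 2660 CPM (next 2299) and Mbl1 at 234 CPM (next 174). SG WD library 5, which had the highest Saa1 of all libraries, had Fgb at 10089 CPM (next 5615) and Fgg at 5696 CPM (next 3598). SG P21 library 5, also high in Saa1, had Vtn at 2741 CPM (next 2170).

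Among complement members, C8g, which encodes a chain of the C8 pore subunit, was at 500 CPM in SG WD library 4 (next 224), the library that held Acta1. Hc was lowest in SG WD library 1 at 408 CPM (next 530) and highest in sham chow library 1 at 648 CPM (next 495). C6 was lowest in sham P7 library 7 at 72.7 CPM (next 147), C8a was highest in sham P7 library 2 at 446 CPM (next 365), and C2 was highest in sham P36 library 6 at 100 CPM (next 71.2).

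Among clotting members, sham P7 library 7 had the highest Proc at 869 CPM (next 537) and the highest F10, the protease that activates prothrombin, at 400 CPM (next 321). Proc was lowest in SG P21 library 3 at 265 CPM (next 395). F11 was at 98.7 CPM in SG P36 library 4 (next 55.7), and F12 was at 371 CPM in sham P21 library 1 (next 298), the library without which F12 was not called for SG against sham on P21.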

How the results depend on the processing

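No named gene that was called in the main run or in an alternative run changed sign between them. Changes of sign among values called in neither run were not looked for, and counts were compared by size alone. Counts of members called moved by over 1.5 times for P7 against P21 in SG mice (6, but 2 with no filter), P7 against P36 in sham mice (4, but 7 with the compared groups alone), P36 against P21 in SG mice (5, but 3 with the compared groups alone, 8 by DESeq2 and 11 without the 5 libraries of high Saa1), SG against sham on P36 (7, but 4 with no filter, 4 with the compared groups alone and 2 without the Adipoq and Acta1 libraries) and SG against sham on P21 (1, but 3 with the compared groups alone, 2 by DESeq2 and 2 without high Saa1). For the difference of the SG effect among diets, 0 became 1 (C2) by DESeq2 and 1 without high Saa1. The cause of these shifts was not tested, and the alternatives that leave out libraries by Saa1, Adipoq or Acta1 were chosen after seeing the data. Without 1 library, counts ranged from 12 to 18 (WD against chow), 14 to 23 and 9 to 12 (P21 against WD, sham and SG), 14 to 21 and 2 to 8 (P7 against P21, sham and SG), 4 to 7 and 8 to 12 (P7 against P36, sham and SG), 2 to 10 (P36 against P21, SG), 0 to 1, 1 to 10 and 1 to 2 (SG against sham on WD, P36 and P21) and 0 to 2 (SG effect among diets), and stayed at 0 for P36 against P21 in sham mice, SG against sham on P7 and the P7 to P36 difference. Of 160 single values, 156 kept their side of the threshold by DESeq2, 159 under RLE scaling, 147 with the compared groups alone (12 calls lost) and 146 with no filter (14 calls lost). No paired analysis was possible because each library carries its own number and the labels name no shared litter, cage or day. For the sums, leaving out 1 library cannot move a group mean by 1 SD, so a limit of 1 SD tests nothing there. In sham mice on P21, for example, the mean clotting sum ran from 2.173% to 2.472% without 1 library. The mean complement sum of that group ran from 1.52% to 1.681%.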
